A study of Mus musculus with 48 samples.

Results

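Selenoprotein mRNAs carry an in-frame UGA codon that is read as the amino acid selenocysteine instead of as a stop. The 10 mRNAs described here, Gpx1, Gpx4, Txnrd1, Txnrd2, Selenow, Selenof, Selenok, Selenot, Selenos and Selenoh, were taken by gene symbol, and each matched a single Ensembl gene among the 50600 genes of the count files. All 10 passed the filter on low counts, which left 13889 genes for testing. They were followed in mPDAC cells, a line of mouse pancreatic ductal adenocarcinoma that was kept for 48 h with 50 µM N6L, a pseudopeptide antagonist of nucleolin, or without treatment (NT). For this line the labels give the genetic background FVB/N x C57BL6 and an age of 8 weeks. The 3 NT cultures, numbered 1, 2 and 4, and the 3 N6L cultures, numbered 1, 2 and 3, received emetine before lysis, and each gave a cytoplasmic library and a library of the pooled polysomal fractions of a sucrose gradient, so that 12 libraries of poly(A)+ RNA were compared. Library totals lay between 19519911 and 44972333 counts, and 3 of the 4 technical replicates summed for the cytoplasm of N6L culture 2 carry a description that names sample 1.

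Levels are CPM, the counts of a gene over the scaled total of its library, with the scaling between libraries by the trimmed mean of M-values (TMM), and every value is therefore relative to the other mRNAs of its library. A fall of all mRNAs in a fraction would not be seen. In such bulk lysates fewer cells of a type and less RNA per cell cannot be told apart. The keratins of ductal cells were abundant, with means over the 12 libraries of 2773 CPM for Krt8, 3464 CPM for Krt18 and 1623 CPM for Krt19, whereas Epcam, also an epithelial marker, had a mean of 0.116 CPM. Above 1 CPM on average were 6 of 7 ductal or epithelial markers, 1 of 5 acinar markers (Cela1, 44.9 CPM), 1 of 5 leukocyte markers (Cd68, 1.42 CPM), and none of 3 endocrine, 5 fibroblast and 4 endothelial markers. The summed level of the markers of other cell types ran from 31.8 CPM in the cytoplasm to 85.6 CPM in the polysomes, both extremes in N6L libraries (cultures 1 and 3), and its part in the results was not tested. Most of this sum was Cela1, with 27.6 and 82.7 CPM in the same libraries.

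Selenocysteine is built on its own tRNA and placed at UGA by the elongation factor Eefsec, with the help of Secisbp2, which binds a hairpin in the 3′ untranslated region called the SECIS element. When decoding fails, ribosomes stop at the UGA, and an mRNA with a UGA upstream of an exon junction can become a target of nonsense-mediated decay. Most selenoproteins are oxidoreductases that remove peroxides or keep thiols reduced, and nucleolin, the target of N6L, has been described as a protein that binds the SECIS elements of some of these mRNAs.

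Each of the 10 mRNAs has 1 selenocysteine codon in the GENCODE vM21 annotation of GRCm38 (mm10). The windows below show the codon in capitals (TGA in DNA letters) with 12 bases on each side of the coding strand, 5′ to 3′, for the 5 mRNAs with the largest fitted difference between polysomes and cytoplasm of N6L cultures and for both thioredoxin reductases, so that the place of the recoded codon and of the true stop can be compared.
Gpx4: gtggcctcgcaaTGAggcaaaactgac
Gpx1: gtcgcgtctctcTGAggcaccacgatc
Selenow: tattgtggagctTGAggctataagccc
Selenoh: cattgtacgagcTGAcgcgtgtacggc
Selenok: atggctggtggaTGAggaaggtaaatg
Txnrd1: cagtctggctgcTGAggttaagcccca
Txnrd2: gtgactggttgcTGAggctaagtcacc

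The Gpx4 codon (chr10:80054737-80054739, + strand) is codon 73 of 197 in exon 3 of 7, and that of Gpx1 (chr9:108339451-108339453, + strand) is codon 47 of 201 in exon 1 of 2. That of Selenow (chr7:15920464-15920466, − strand) is codon 13 of 88 in exon 2 of 6, and that of Selenoh (chr2:84670381-84670383, − strand) is codon 38 of 116 in exon 2 of 3. These UGA codons sit inside the reading frame, upstream of the last exon junction. In the remaining windows the stop codon follows after 1 or 2 further codons. Selenok (chr14:29973440-29973442, + strand) has its UGA at codon 92 of 94, Txnrd1 (chr10:82896037-82896039, + strand) at codon 498 of 499 and Txnrd2 (chr16:18477772-18477774, + strand) at codon 526 of 527. The UGA of Txnrd1 lies in the last of 14 exons, that of Txnrd2 in exon 17 of 18. Among the 10 mRNAs, 4 have the UGA within the last 3 codons (Selenos is the other), 2 have it in the last exon (Txnrd1 and Selenos), and 7 have it more than 50 nt upstream of the last exon junction. The base after the UGA, which is known to influence how well the codon is read, was G in 7 of the 10 and in 12 of the 24 mouse selenoprotein genes of the annotation.

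**Figure D1:**
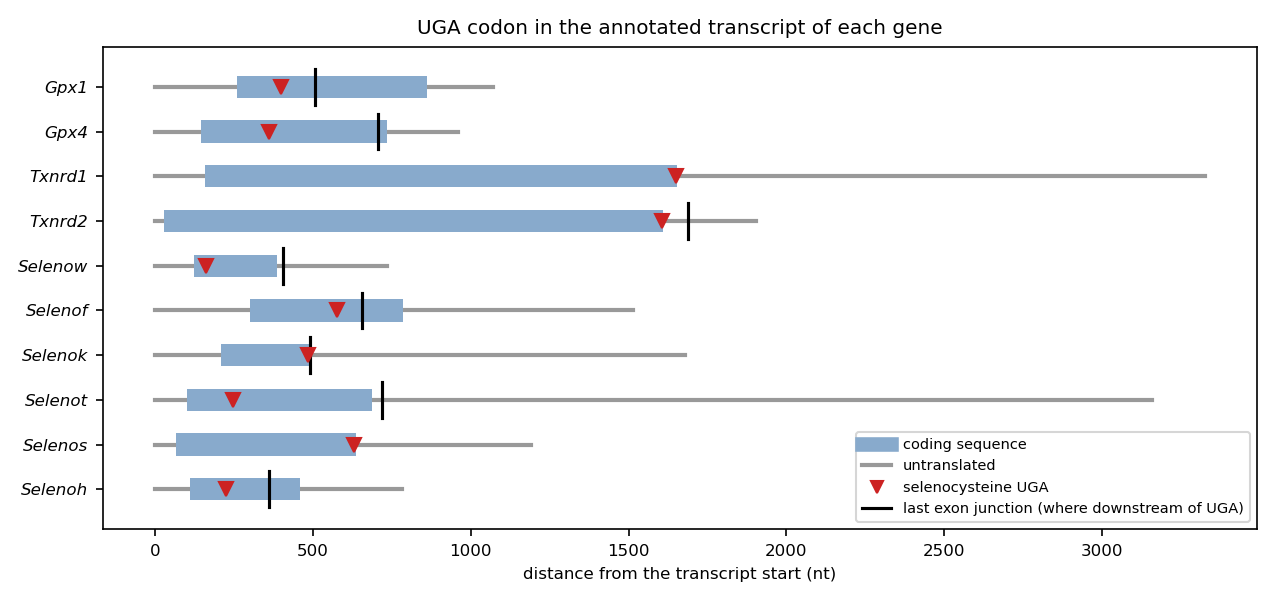
The annotated transcript of each of the 10 genes drawn to scale, in nucleotides from its start (x axis), with the coding sequence as a bar, the selenocysteine UGA as a triangle and the last exon junction as a tick where it lies downstream of the UGA. Txnrd1 and Selenos have no such junction, and Txnrd1 (3325 nt) and Selenot (3157 nt) are the longest transcripts.

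Per kilobase of transcript, Gpx4 was the most abundant of the 10 in NT cytoplasm, with 405 ± 47.2 CPM per kb (SD, n = 3). It was followed by Selenof (236 ± 30.8 CPM per kb), Gpx1 (189 ± 73.4), Selenow (148 ± 45.0) and Selenoh (119 ± 17.7), and neighbours in that order overlapped between cultures. Gpx4 did not overlap Selenof, nor Selenoh the next gene. Txnrd1 (65.6 ± 6.47 CPM per kb), Selenos (64.8 ± 11.7) and Selenok (60.0 ± 8.45) overlapped one another, Selenot stood below them at 29.7 ± 3.95 CPM per kb, and Txnrd2 was lowest at 6.70 ± 0.578 CPM per kb, 60.5 times below Gpx4.

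As a sum, the 10 mRNAs made up 1588, 1629 and 1746 CPM of the NT cytoplasm and 1337, 1269 and 1275 CPM of the N6L cytoplasm. All N6L cultures were below all NT cultures. In the polysomes the sums were 2107, 1930 and 2191 CPM without treatment and 1752, 1847 and 2451 CPM with N6L. Here the treatments overlapped, with N6L culture 3 above every other library.

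With N6L, Selenoh, Selenow and Selenof mRNA were lower in the cytoplasm, and in polysomes Selenoh alone was lower past the limit. Of these calls between treatments, only the cytoplasmic call of Selenoh was kept in all 6 fits that left out 1 culture and with an offset for transcript length and GC content. Selenow kept its cytoplasmic call in 4 of the 6 and Selenof in 0, both lost it with the offset, and the polysomal call of Selenoh held in 2 of the 6. Within N6L cultures, 7 of the 10 mRNAs, against 18.4% of all genes, were higher in polysomes than in cytoplasm, Gpx4 (2.28-fold) and Gpx1 (2.17-fold) most. That count fell to 2 without N6L culture 2, without N6L culture 3, or with the offset (2.56%, 3.09% and 7.17% of all genes), and of these 2 mRNAs Gpx4 was one each time. The values of Txnrd1 and Selenot pointed the other way without passing the limit. Both passed it as lower, as did 27.6% of all genes, when a term for each culture paired its libraries (edgeR FDR 0.0147 and 0.0246). In NT cultures 0 of the 10 passed, where 0.209% of all genes did, and the direct test of the change in polysome loading between treatments called 0 of the 10 and 0% of all genes. Neither of these zeros sets the 10 mRNAs apart, and a difference in loading between N6L and NT cultures was not shown. These calls come from edgeR's quasi-likelihood test fitted on all 12 libraries with Benjamini-Hochberg adjustment over the 13889 genes (FDR, limit 0.05). The p-values measure the spread between these cultures.

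The glutathione peroxidases come first. Gpx4 reduces lipid peroxides in membranes and restrains ferroptosis. Its mRNA stood at 351, 376 and 439 CPM in NT cytoplasm and at 281, 242 and 269 CPM in N6L cytoplasm. In polysomes it stood at 555, 523 and 686 CPM (NT) and at 446, 529 and 830 CPM (N6L). The cytoplasmic groups did not overlap and the polysomal groups did, N6L culture 3 being highest and N6L culture 1 lowest. In the cytoplasm the log2 fold change was -0.56 ± 0.21 (SE), short of the limit in edgeR's quasi-likelihood test (FDR 0.0556), and past it in DESeq2 (FDR 0.0275). Within N6L cultures the polysome-to-cytoplasm difference was 1.19 ± 0.21 on the log2 scale (edgeR FDR 0.00427), against 0.60 ± 0.21 in NT cultures (edgeR FDR 0.236). The Gpx4 call in N6L cultures was kept in all 6 fits that left out 1 culture (edgeR FDR 0.00285 to 0.0483). It was kept narrowly with the offset (edgeR FDR 0.0498). Gpx1, the cytosolic peroxidase of hydrogen peroxide, had 133, 187 and 288 CPM in NT cytoplasm and 188, 176 and 198 CPM in N6L cytoplasm, the N6L values lying inside the NT range. Its polysomal levels were 244, 265 and 402 CPM (NT) and 301, 342 and 576 CPM (N6L). They overlapped too, and culture 3 was again the highest. Gpx1 was higher in polysomes than in cytoplasm in N6L cultures (log2 1.12 ± 0.29, edgeR FDR 0.0106), and the same difference was 0.58 ± 0.29 in NT cultures (edgeR FDR 0.399). The call for N6L cultures was lost without N6L culture 2 (FDR 0.0549) or 3 (FDR 0.0945).

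The thioredoxin reductases regenerate reduced thioredoxin, Txnrd1 in the cytosol and Txnrd2 in mitochondria. Txnrd1 mRNA had 236, 225 and 194 CPM in NT cytoplasm and 245, 233 and 224 CPM in N6L cytoplasm. Its polysomal levels were 224, 236 and 174 CPM without and 225, 163 and 135 CPM with N6L. Both pairs of groups overlapped, and no comparison called Txnrd1 as first fitted. Its polysome-to-cytoplasm log2 difference in N6L cultures was -0.42 ± 0.19 (edgeR FDR 0.0828), and it was called lower in 1 of the 6 fits that left out a culture (edgeR FDR 0.0273). When a term for each culture paired its libraries (the block), the value was -0.45 (edgeR FDR 0.0147). Txnrd2 was the scarcest of the 10, with 12.27, 11.98 and 14.02 CPM in NT cytoplasm and 10.12, 10.64 and 10.01 CPM in N6L cytoplasm. Its polysomal levels were 12.7, 15.4 and 15.5 CPM (NT) and 12.2, 13.5 and 18.3 CPM (N6L). The cytoplasmic groups lay apart and the polysomal groups overlapped. Txnrd2 was higher in polysomes of N6L cultures (log2 0.51 ± 0.17, edgeR FDR 0.0325), a call that was lost without NT culture 2 (FDR 0.0529), N6L culture 2 (FDR 0.0896) or N6L culture 3 (FDR 0.262), and the cytoplasmic difference between treatments, -0.31 ± 0.18, did not pass (edgeR FDR 0.185). Txnrd1 overlaps Eid3 on its own strand and Selenoh overlaps Gm28635 on the opposite strand, and whether the counting used strand is not given in the sources used here.

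Selenoh and Selenow belong to the small selenoproteins with a thioredoxin-like fold, and Selenoh resides in the nucleolus. Selenoh had 83.5, 87.6 and 109 CPM in NT cytoplasm and 44.5, 43.2 and 45.3 CPM in N6L cytoplasm. In polysomes it had 122, 117 and 195 CPM (NT) and 70.6, 77.1 and 108 CPM (N6L). It was the only one of the 10 whose N6L cultures were all below the NT cultures in both fractions. In the cytoplasm it fell to 0.475 of the NT level (log2 -1.07 ± 0.21, edgeR FDR 0.00410), and the call was kept when each of the 6 cultures was left out in turn (FDR 0.00588 to 0.0296). In polysomes it fell to 0.590 of the NT level (log2 -0.76 ± 0.21, edgeR FDR 0.0385). That call was lost without NT culture 1 (FDR 0.0862) or 4 (FDR 0.151) and without N6L culture 1 (FDR 0.103) or 2 (FDR 0.197). Selenow, a glutathione-binding protein that is abundant in muscle, had 78.4, 105 and 144 CPM in NT cytoplasm and 59.5, 59.5 and 63.1 CPM in N6L cytoplasm. The groups lay apart, and it fell to 0.557 of the NT level (log2 -0.84 ± 0.21, edgeR FDR 0.0114). The call was lost without NT culture 4 (FDR 0.0529) or N6L culture 2 (FDR 0.0550). Its polysomal levels, 138, 96.7 and 95.6 CPM (NT) and 83.0, 106 and 100 CPM (N6L), overlapped. Both mRNAs were higher in polysomes than in cytoplasm of N6L cultures, Selenoh by a log2 of 0.94 ± 0.21 (edgeR FDR 0.00672) and Selenow by 0.67 ± 0.21 (edgeR FDR 0.0242). The first call was lost without N6L culture 3 (FDR 0.0541), the second without N6L culture 2 (FDR 0.141) or 3 (FDR 0.108). In NT cultures the fitted values were 0.63 ± 0.21 for Selenoh (edgeR FDR 0.230) and 0.01 ± 0.21 for Selenow (edgeR FDR 0.978).

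**Figure D2:**
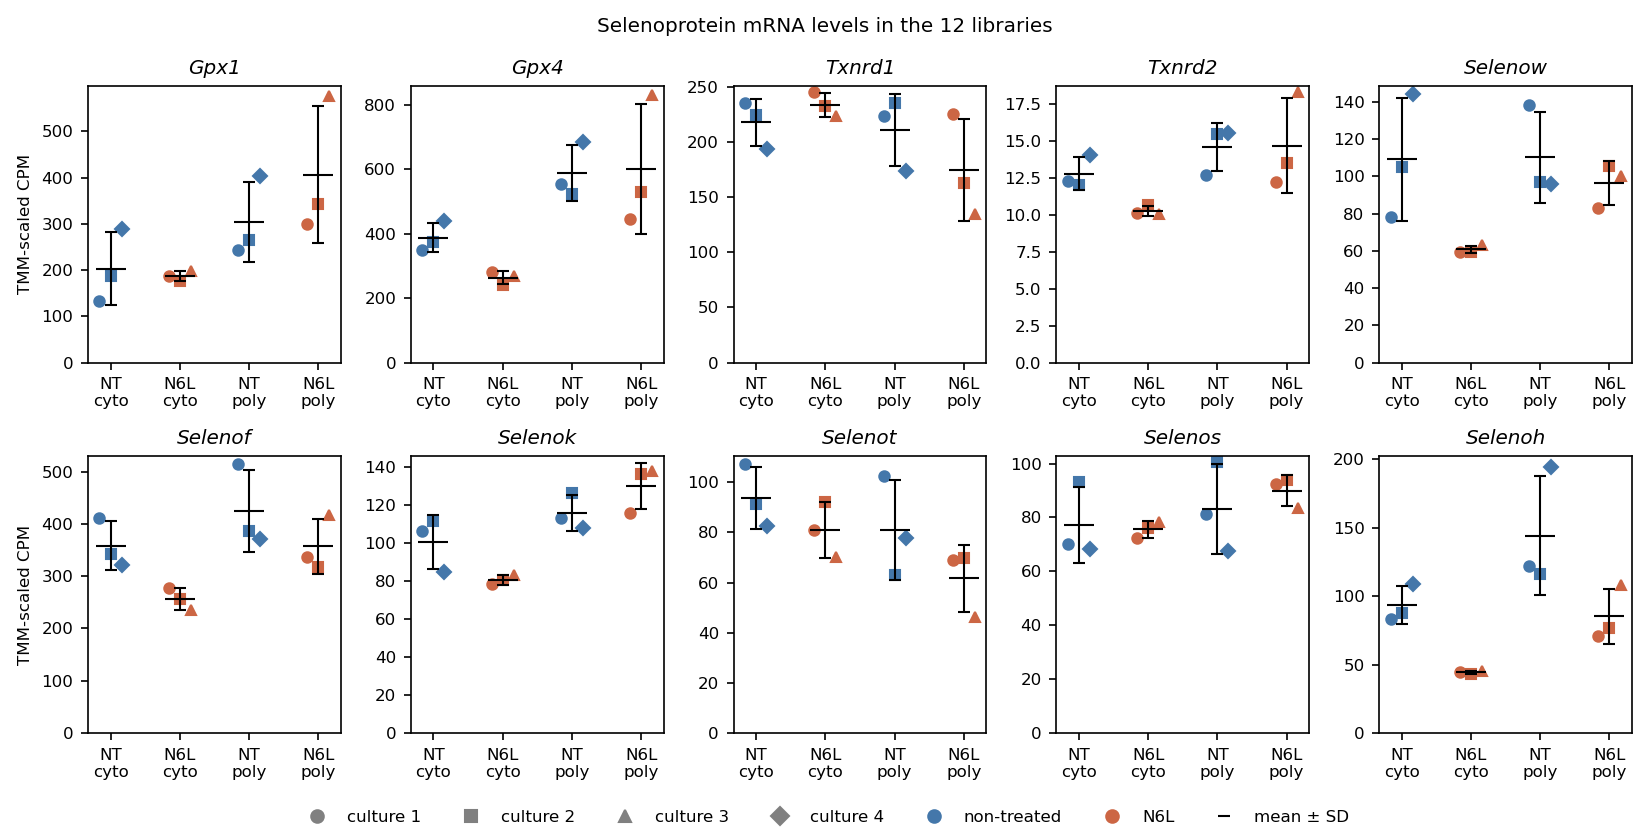
Levels of the 10 mRNAs in all 12 libraries, in TMM-scaled CPM (y axis, linear from 0), by treatment and fraction, with 1 symbol per culture and mean ± SD as a line with bars. The N6L cytoplasm lies below the NT cytoplasm for Gpx4, Txnrd2, Selenow, Selenof, Selenok and Selenoh, and in the polysomes for Selenoh alone.

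The remaining 4 act at the endoplasmic reticulum: Selenof in the quality control of glycoprotein folding, Selenok and Selenos in the membrane complexes of protein degradation, and Selenot as a membrane-bound oxidoreductase. Selenof had 411, 342 and 322 CPM in NT cytoplasm and 278, 255 and 235 CPM in N6L cytoplasm. It fell to 0.716 of the NT level (log2 -0.48 ± 0.17, edgeR FDR 0.0462), without overlap of the groups, but the call was lost with each of the 6 cultures left out in turn (FDR 0.0515 to 0.143). Polysomal Selenof overlapped, with 515, 387 and 371 CPM (NT) and 337, 317 and 416 CPM (N6L). It was higher in polysomes than in cytoplasm of N6L cultures (log2 0.48 ± 0.17, edgeR FDR 0.0375), which was lost without NT culture 2 (log2 then 0.48, FDR just above the limit), N6L culture 2 (FDR 0.0985) or N6L culture 3 (FDR 0.310). Selenok had 106, 111 and 84.5 CPM in NT cytoplasm and 78.1, 80.4 and 83.2 CPM in N6L cytoplasm. Its polysomal levels were 113, 126 and 108 CPM (NT) and 116, 136 and 138 CPM (N6L). The cytoplasmic groups lay narrowly apart (log2 -0.32), a difference past the limit by DESeq2 (FDR 0.0429) but not by edgeR (FDR 0.109), and the polysomal groups overlapped. Selenok was higher in polysomes of N6L cultures (log2 0.69 ± 0.15, edgeR FDR 0.00552), a call lost without N6L culture 2 (FDR 0.0569). The annotation names 6 Selenok pseudogenes, 1 of Gpx4 and 1 of Selenot, and how reads with several matches were counted is not given in the sources used here.

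Selenot and Selenos were called in no comparison. Selenot had 107, 91.2 and 82.7 CPM in NT cytoplasm and 80.8, 92.1 and 70.1 CPM in N6L cytoplasm. In polysomes it had 103, 63.2 and 77.6 CPM (NT) and 69.0, 69.7 and 46.4 CPM (N6L). Its polysome-to-cytoplasm log2 difference in N6L cultures was -0.39 ± 0.21 (edgeR FDR 0.140), and -0.41 with the block (edgeR FDR 0.0246). Selenos had 70.0, 93.3 and 68.3 CPM in NT cytoplasm and 72.4, 76.0 and 78.3 CPM in N6L cytoplasm. Its polysomal levels were 81.4, 101 and 67.4 CPM (NT) and 92.5, 94.0 and 83.4 CPM (N6L). The groups of both genes overlapped in both fractions.

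**Figure D3:**
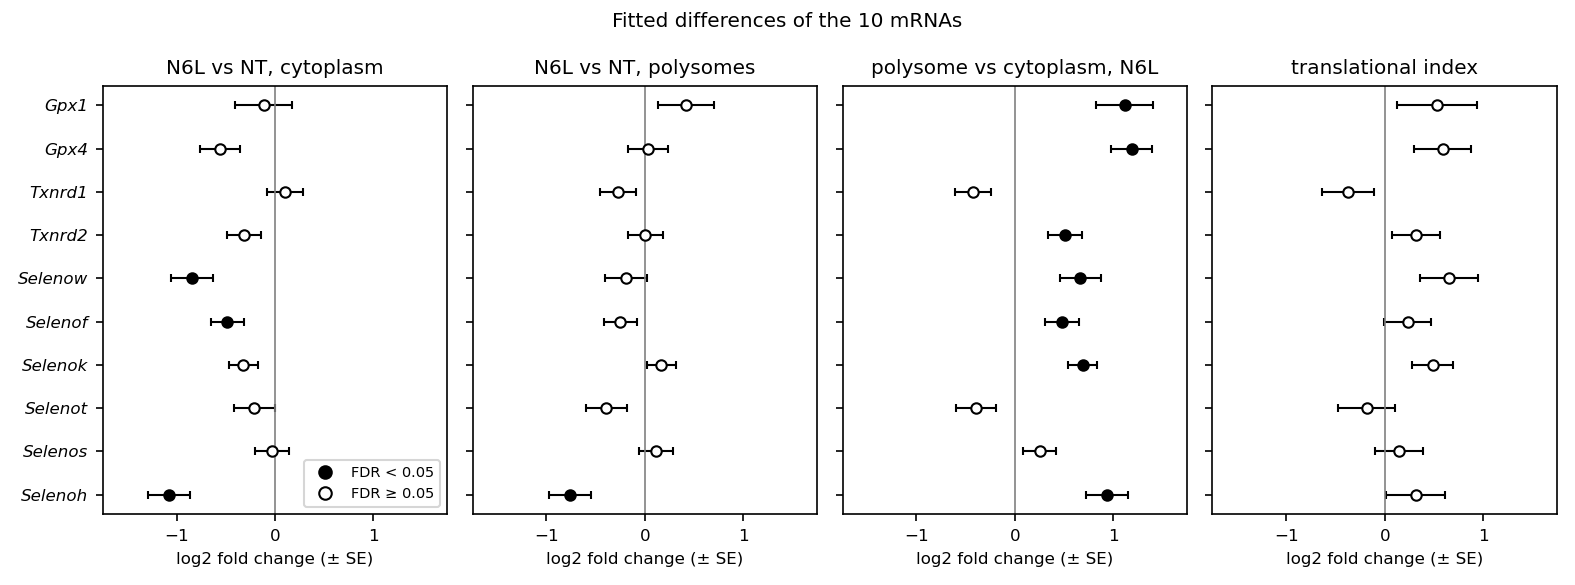
Fitted log2 fold changes (x axis, ± SE) of the 10 mRNAs in 4 comparisons, with filled symbols where the FDR of edgeR's quasi-likelihood test is under 0.05. Filled symbols are 3 in the cytoplasm, 1 in the polysomes, 7 for polysome versus cytoplasm in N6L cultures and 0 for the translational index.

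These counts can be read against those of all genes tested. In the cytoplasm with N6L, 3 of the 10 mRNAs were lower and 0 higher, where 13.8% of all genes were lower and 14.5% higher, and the median log2 change was -0.32 against 0.04 for all genes. In 6 of the 10 the N6L cytoplasm lay below the NT cytoplasm without overlap, which held for 25.6% of all genes. In the polysomes 1 of the 10 was lower, against 3.66% of all genes, with medians of -0.09 and 0.0008, and 1 of the 10 lay below NT without overlap (Selenoh, against 11.9%). In NT cultures the polysome-to-cytoplasm test called 0 of the 10 by edgeR and 0 by DESeq2, with 2 at an unadjusted p under 0.05 by either (0.209% of all genes called by edgeR). The median of the 10 was 0.20 and that of all genes 0.03.

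Among the 5 comparisons, the median of the 10 lay furthest from that of all genes for polysome loading in N6L cultures. Of the 10, 7 were higher in polysomes and 0 lower, against 18.4% and 20.6% of all genes tested, and the median log2 difference was 0.59 against 0.03. Without N6L culture 2 the count was 2 (Gpx4 and Selenoh, where 2.56% of all genes were higher), and without N6L culture 3 it was 2 as well (Gpx4 and Selenok, 3.09%). With the block all 7 were called higher (26.1% of all genes) and Txnrd1 and Selenot lower (27.6%).

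The ratios of single cultures show the spread behind this count. For Gpx4 the log2 polysome-to-cytoplasm ratio was 0.66, 0.48 and 0.65 in NT cultures 1, 2 and 4 and 0.67, 1.12 and 1.63 in N6L cultures 1, 2 and 3. For Selenok it was 0.09, 0.18 and 0.35 against 0.57, 0.76 and 0.73. These were the 2 mRNAs whose N6L cultures lay above all NT cultures, which held for 15.3% of all genes, and an exact two-sided permutation test gave p = 0.1 for each, the smallest that 3 cultures against 3 allow. For Gpx1 the ratios were 0.87, 0.50 and 0.48 against 0.68, 0.96 and 1.54, and for Selenoh 0.55, 0.41 and 0.83 against 0.66, 0.83 and 1.25. Both overlapped, and in both N6L culture 3 was highest. Selenow varied most among NT cultures, with 0.82, -0.12 and -0.59, against 0.48, 0.83 and 0.67 with N6L. Txnrd1 had -0.08, 0.07 and -0.16 against -0.12, -0.51 and -0.73, with culture 3 the lowest. In N6L cultures 8 of the 10 mRNAs had a ratio above 0 in all 3, as had 37.6% of all genes, and Txnrd1 and Selenot had one below 0 in all 3.

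**Figure D4:**
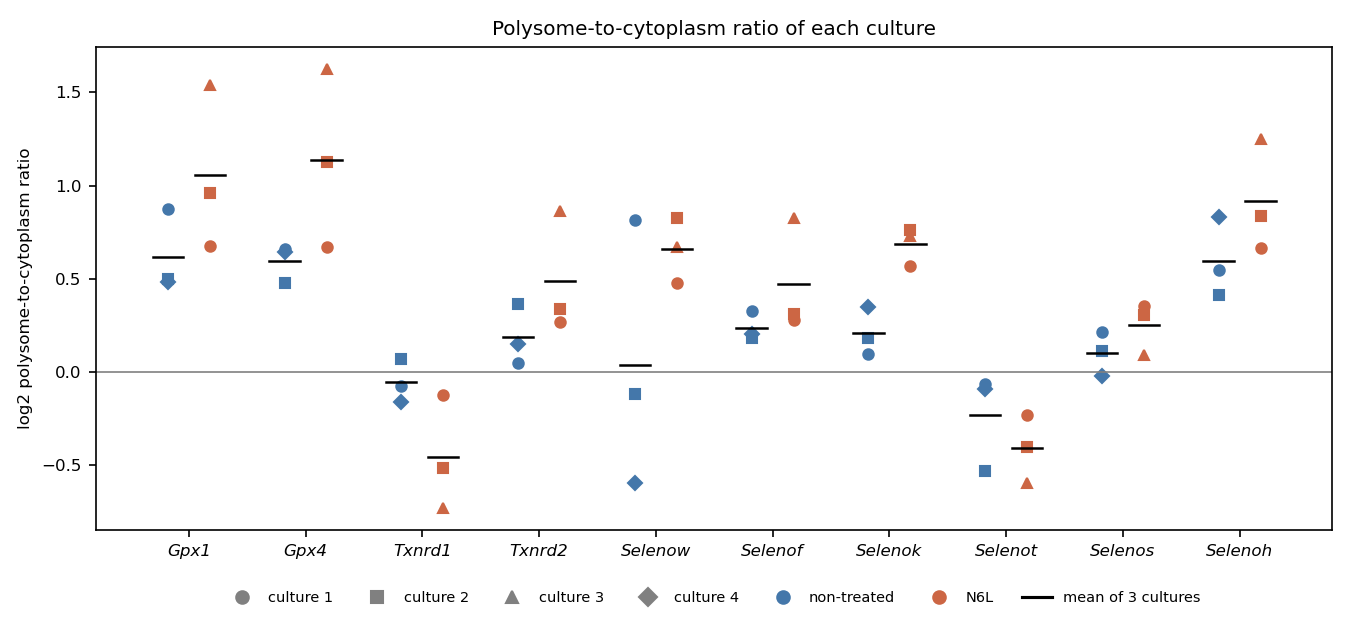
Log2 ratio of polysomal to cytoplasmic CPM (y axis) of the 10 mRNAs in each culture, NT in blue and N6L in orange, with 1 symbol per culture and the mean of 3 cultures as a line. N6L culture 3 has the highest ratio for Gpx1, Gpx4, Txnrd2, Selenof and Selenoh and the lowest for Txnrd1 and Selenot.

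The translational index (TI), the polysome-to-cytoplasm log2 ratio with N6L minus that without, tests the change in loading itself. It was above 0 for 8 of the 10 mRNAs, against 50.7% of all genes, with a median of 0.32 against 0.0079. The values ran from 0.65 ± 0.30 for Selenow, 0.59 ± 0.29 for Gpx4, 0.53 ± 0.41 for Gpx1 and 0.49 ± 0.21 for Selenok down to -0.18 ± 0.29 for Selenot and -0.37 ± 0.26 for Txnrd1. Leaving out 1 culture moved them widely, from 0.35 to 1.04 for Selenow, 0.30 to 0.81 for Gpx4, 0.24 to 0.71 for Gpx1 and -0.57 to -0.25 for Txnrd1. By edgeR's quasi-likelihood test 0 of the 10 passed the limit, as did 0% of all genes, and 2 (Selenok and Selenow) had an unadjusted p under 0.05. DESeq2 called 0 of the 10 as well, with 2 at an unadjusted p under 0.05. With the block, edgeR's unadjusted p was under 0.05 for Selenok (0.00937) and Gpx4 (0.0384) but not for Selenow (0.0770). None of these passed the FDR limit.

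Transcript length moved with loading. Length and GC content of the 10 are those of the transcript with the annotated selenocysteine codon. For all genes they are those of the longest principal coding transcript. The offset used below took this second rule for the 10 as well. The 10 transcripts have a median length of 1352.5 nt against 2753 nt for all genes tested, and in N6L cultures the polysome-to-cytoplasm log2 difference went down with length, with a Spearman coefficient of -0.71 over the 10 mRNAs and -0.62 over 13867 genes. In NT cultures the coefficients were -0.58 and -0.47, and for the change with N6L they were 0.70 and 0.50 in the cytoplasm and -0.14 and 0.14 in polysomes. The only members below 0 in N6L loading, Txnrd1 and Selenot, are the longest. For TI the coefficients with length were -0.72 and -0.54, and with GC content 0.75 and 0.43. These coefficients are descriptions across genes, which are not independent replicates. When each library's trend with length and GC content entered the fit as an offset, the N6L loading count went from 7 to 2 of 10 (Selenok, log2 0.66, edgeR FDR 0.0108, and Gpx4, 0.29, edgeR FDR 0.0498), where 7.17% of all genes were higher. The median of the 10 was then 0.24 and the median TI 0.03. Gpx1 went from 1.12 to 0.28 (edgeR FDR 0.248) and Txnrd2 from 0.51 to 0.21 (edgeR FDR 0.251). Selenow turned from 0.67 to -0.16 and Selenot from -0.39 to 0.16, neither past the limit. The cytoplasmic fall of Selenoh was called with the offset too, at -0.60 (edgeR FDR 0.00366), and those of Selenow (-0.21, edgeR FDR 0.504) and Selenof (-0.31, edgeR FDR 0.194) were not.

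**Figure D5:**
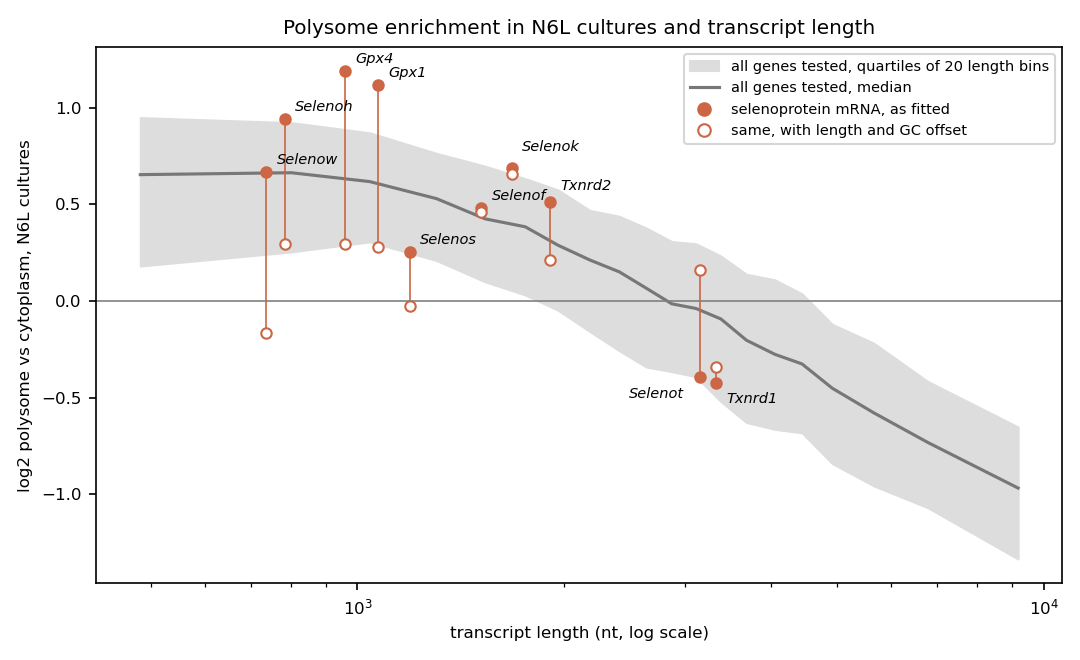
Polysome-versus-cytoplasm log2 difference in N6L cultures (y axis) against transcript length in nt (x axis, log scale) for the 10 mRNAs as fitted (filled) and with the length and GC offset (open), over the median (line) and quartiles (band) of all genes in 20 length bins. The offset moves Gpx1, Gpx4, Selenoh and Selenow most and Selenok, Selenof and Txnrd1 least. Transcripts of the 10 and of all genes were chosen by different rules, as given in the text.

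Of the other 14 mouse selenoprotein genes, 10 passed the filter (Gpx2, Gpx3, Dio2 and Selenov did not). In the cytoplasm 2 were higher with N6L (14.5% of all genes) and 0 lower (13.8%), and in polysomes 2 were higher (6.01%) and 0 lower (3.66%), so the cytoplasmic count was near the share over all genes. Selenop, the secreted carrier of selenium, had 359, 360 and 317 CPM in NT cytoplasm and 609, 712 and 612 CPM in N6L cytoplasm. It rose 1.87-fold there (log2 0.90 ± 0.14, edgeR FDR 0.00155) and 1.62-fold in polysomes (0.70 ± 0.14, edgeR FDR 0.00917), with no overlap in either fraction. Txnrd3 rose in the cytoplasm (0.48 ± 0.14, edgeR FDR 0.0233), and Dio1, a deiodinase at or under 2 CPM in every library, rose in polysomes (1.79 ± 0.37, edgeR FDR 0.0106). In N6L cultures 5 of the 10, against 18.4% of all genes, were higher in polysomes, among them Selenom (1.46 ± 0.34), Msrb1 (0.91 ± 0.21) and Sephs2 (0.70 ± 0.16), which makes the selenium donor, along with Dio1 and Selenoo, and Selenoi was lower (-0.61 ± 0.19), as were 20.6% of all genes. The 5 higher transcripts have 707 to 2383 nt and that of Selenoi has 6803 nt. Selenoi was below 0 in NT cultures as well, with log2 ratios of -0.62, -0.53 and -1.06, against -0.39, -0.46 and -1.08 with N6L. For TI 0 of the 10 passed by edgeR, and 0 had an unadjusted p under 0.05.

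The genes for selenocysteine synthesis, insertion and selenium supply moved in both directions. In the cytoplasm 5 of 14, against 13.8% of all genes, were lower with N6L: Rpl30, a ribosomal protein that also binds SECIS elements (-0.91 ± 0.16), Trnau1ap (-0.76 ± 0.22), Pstk, the kinase that acts on the charged tRNA (-0.69 ± 0.20), Eefsec (-0.54 ± 0.16) and Eif4a3 (-0.49 ± 0.17). Higher was Secisbp2l alone, a relative of Secisbp2 (0.79 ± 0.25), against 14.5% of all genes. In polysomes 1 of 14 was higher, against 6.01% of all genes: Scly, which releases selenium from selenocysteine (0.61 ± 0.17). Within N6L cultures 4 of the 14 were higher in polysomes (Pstk, Trnau1ap, Rpl30 and Scly) and 5 lower (Secisbp2l, Sepsecs, Alkbh8, Lrp8 and Ncl), against 18.4% and 20.6% of all genes. The 5 lower transcripts have 4555 to 8202 nt and the 4 higher ones 886 to 2202 nt. Over all genes, loading in N6L cultures went down with length (Spearman -0.62). The share of length in these calls was not tested. Secisbp2 itself had 24.8, 27.4 and 26.8 CPM in NT cytoplasm and 30.1, 34.4 and 34.4 CPM in N6L cytoplasm and was not called. For TI 0 of the 14 passed by edgeR, with 2 at an unadjusted p under 0.05.

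Ncl encodes nucleolin, the protein that N6L binds. Its mRNA had 974, 1556 and 1477 CPM in NT cytoplasm and 1157, 1297 and 1261 CPM in N6L cytoplasm, which overlapped (log2 -0.11 ± 0.31, edgeR FDR 0.812). In polysomes it had 885, 813 and 923 CPM (NT) and 798, 478 and 231 CPM (N6L), all N6L cultures being lower, with culture 3 lowest, and the difference did not pass (-0.80 ± 0.31, edgeR FDR 0.122). In N6L cultures it was lower in polysomes than in cytoplasm (-1.30 ± 0.32, edgeR FDR 0.00837). The log2 ratio was below 0 in all NT cultures too, with -0.14, -0.94 and -0.68, against -0.54, -1.44 and -2.45 with N6L. The treatments overlapped (exact permutation test, p = 0.3).

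Genes most like the 10 were found from the Pearson correlation with the mean standardised log2 CPM of the 10 over the 12 libraries, among 8949 other genes that averaged 10 CPM or more. Among the highest were Rps3 (r = 0.959), a protein of the small ribosomal subunit, Chmp3 (0.959), Ssr4 (0.959) and Rnf181 (0.956). The libraries share scaling, fraction and treatment, and these coefficients are given as a description.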

How the data were processed

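The deposited values are raw counts per Ensembl gene, not normalized, which the authors made with STAR and HTSeq-count on mm10. The labels name bcl2fastq 2.18.0.12 and HTSeq 0.5.3. Annotation release, strand setting and the handling of multiply matching reads were not given in the sources used here. The 4 technical replicates of each library (chi-square per degree of freedom 1.02 to 1.04) were summed. Of 50600 genes, 50376 were found in GENCODE vM21, which gave symbols, coordinates, lengths and the sequence windows.

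Low counts were removed with filterByExpr. The quasi-likelihood model (glmQLFit, glmQLFTest) of edgeR 4.0.16 under R 4.3.3 used TMM factors, with 1 mean per fraction and treatment for all 12 libraries and Benjamini-Hochberg adjustment over 13889 genes. DESeq2 1.42.0 was an alternative. Each culture's ratio is the polysomal minus the cytoplasmic log2 CPM (TMM, prior count 2), compared by exact permutation tests. The common biological coefficient of variation was 0.197.

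Every member is named. From the other lists, genes past the filter or the FDR limit are named, as are genes among the 5 of closest profile. Some items are not reported here. The members and lists were chosen with earlier results of these data known.

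Both libraries of a culture come from one lysate, which pairs them. Over genes, their departures from the means of their groups had r of 0.364 (NT culture 1), 0.452 (NT 2), 0.645 (NT 4), 0.0368 (N6L 1), 0.199 (N6L 2) and 0.229 (N6L 3). Alternatives were other scalings and filters, technical replicate a alone, dropping the 3 files whose labels conflict, dropping each culture, a block for the culture, fitting only the groups compared, and a length and GC offset (natural splines with 5 degrees of freedom).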

Additional observations from a re-analysis of the deposited data

How the results depend on the processing

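All values are counts of the 10 mRNAs past the FDR limit or log2 fold changes. The TI count was 0 under every alternative run. With each culture left out in turn, the counts ran from 1 to 3 in the cytoplasm (5.22% to 13.4% of all genes lower) and 0 to 1 in polysomes (0.121% to 4.93% lower). For loading in N6L cultures they ran from 2 to 8 (2.56% to 21.1% of all genes higher, 5.66% to 21.7% lower). The count of 8 includes Txnrd1, which was called lower in 1 of these 6 fits (edgeR FDR 0.0273). The cytoplasmic count was 5, all lower, with DESeq2 (17.8% of all genes lower), with only the groups compared (21.3%) and with the replicate block (2224 of 13889 genes lower), which across treatments joins cultures by number alone, 1 with the length and GC offset (14.3%), and 4 with offset and block (Selenof, Selenok and Selenoh lower, as were 2089 genes, and Gpx1 higher, as were 15.4%). The polysomal count was 0 with technical replicate a alone (2.94% of all genes lower) and with only the groups compared (0.524%), 2 with the offset (Selenoh and Selenot, both lower, 10.6%), and 3 with offset and block (Selenoh and Txnrd1 lower, Gpx1 higher, 10.3% each way). Loading in NT cultures gave 2 higher without the filter (0.143% of all genes). Loading in N6L cultures gave 4 higher with library size alone (12.7% of all genes), 2 higher with the offset (7.17%), 4 with offset and block (Gpx4, Selenof and Selenok higher, 13.7%, Txnrd1 lower, 17.4%), and 9 with the block (7 higher, 26.1%, Txnrd1 and Selenot lower, 27.6%). Library size alone moved the median of all genes in the cytoplasm from 0.04 to 0.19. Most signs that turned belong to values called under neither setting. The exceptions are Selenow in N6L loading, which was called as first fitted, and Gpx1 in the cytoplasm, which was called higher with offset and block (edgeR FDR 0.00649). In the cytoplasm, Gpx1 was 0.041 with library size alone, 0.051 with the block, 0.41 with the offset and 0.54 with both, Selenos was 0.11, 0.24 and 0.11 with library size alone, the offset and both and 0.013 without the filter, Txnrd1 was -0.092 with the offset and -0.075 with both, and Gpx4 was 0.0017 with the offset. In polysomes, Gpx4 was -0.033 with the block, and Txnrd2 was -0.012 with RLE size factors, -0.014 with DESeq2, -0.13 with technical replicate a alone, -0.025 with the block, -0.18 with the offset and -0.13 with both. In NT loading, Selenow was -0.046 with library size alone, and with the offset and with both, Selenow was -0.28 and -0.33, Selenot 0.21 and 0.21, and Selenos -0.054 and -0.065, while Txnrd1 was 0.0017 with technical replicate a alone. In N6L loading, the offset and both gave -0.16 and -0.19 for Selenow, 0.16 and 0.16 for Selenot, and -0.025 and -0.026 for Selenos. The TI of Gpx1 was -0.018 with both. Leaving out a culture spanned 0 for Gpx1 (-0.34 to 0.20), Txnrd1 (-0.0073 to 0.16) and Selenos (-0.14 to 0.13) in the cytoplasm, for Gpx4 (-0.27 to 0.21), Txnrd2 (-0.18 to 0.12) and Selenow (-0.28 to 0.0017) in polysomes and for Selenow (-0.37 to 0.34) in NT loading. The cause of these shifts was not tested. With 3 cultures per group, no permutation test of a ratio could fall below 0.1.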

Other observations

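The cysteine-based partners of the selenoproteins, thioredoxins, peroxiredoxins, glutaredoxins and methionine sulfoxide reductases, gave 18 of 19 genes that passed the filter (Gpx7 did not). In the cytoplasm 7 were lower with N6L and 2 higher by edgeR's quasi-likelihood test, against 13.8% and 14.5% of all genes, and the median log2 change of the 18 was -0.54. The thioredoxins Txn1 (-1.14 ± 0.23, edgeR FDR 0.00444) and Txn2 (-1.08 ± 0.18, edgeR FDR 0.00211) fell most, along with Glrx5, Prdx2, Prdx3, Prdx4 and Prdx5. Txn1 had 572, 549 and 992 CPM in NT cytoplasm and 318, 325 and 316 CPM in N6L cytoplasm, without overlap. Higher were Msrb3 and Txnip, whose product binds and inhibits thioredoxin. The 7 lower transcripts have 990 to 2925 nt, that of Msrb3 3843 nt and that of Txnip 2795 nt. Over all genes the cytoplasmic change went up with length (Spearman 0.50). The share of length in these calls was not tested. Txnip had 181, 242 and 340 CPM in NT cytoplasm and 1121, 819 and 805 CPM in N6L cytoplasm. It rose 3.60-fold there (edgeR FDR 0.00155) and 3.14-fold in polysomes (edgeR FDR 0.00479), where Glrx was the only other gene of the list called, also higher, against 6.01% of all genes. In N6L cultures 11 of the 18 were higher in polysomes than in cytoplasm (18.4% of all genes) and 1 lower (Msrb3, 20.6% of all genes), and with the length and GC offset 5 were higher (7.17% of all genes) and 0 lower. For TI 0 of the 18 passed by edgeR or DESeq2, with 1 at an unadjusted p under 0.05 by either, and the median of the list was 0.31, or 0.18 with the offset.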
